A study of Mus musculus with 13 samples.

Results

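The 10 genes described here make, move or specify the monoamine transmitters dopamine, noradrenaline and serotonin. They are Th, Ddc, Slc6a3, Slc18a2, Tph2, Slc6a4, Fev, Dbh, Nr4a2 and Pitx3, and all probe sets annotated to these symbols were taken. That gave 17 of the 45037 non-control probe sets and covered 9 of the 10 genes, since no probe set was annotated to Fev. Whole brain RNA came from 13 mouse embryos at E18.5, shortly before birth, with 1 embryo on each Affymetrix array: 6 wild-type and 7 Meg3 knock-out embryos from 5 litters. Litter 148 gave only 1 embryo, knock-out 1, so for that array genotype and litter cannot be told apart. The labels name no treatment. Meg3 is an imprinted, maternally expressed long non-coding RNA. The sources used here do not say which segment was deleted, which parent passed on the allele, or the strain and sex of the embryos. The design text calls the embryos biological replicates.

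Many monoamine neurons, though not all, form small clusters of cells in the midbrain and hindbrain that send axons through most of the brain. Dopamine neurons use tyrosine hydroxylase (Th) and aromatic amino acid decarboxylase (Ddc), noradrenaline neurons add dopamine beta-hydroxylase (Dbh), and serotonin neurons use tryptophan hydroxylase (Tph2) followed by the same decarboxylase. All load transmitter into vesicles through Slc18a2 (VMAT2), and each type recovers its transmitter through its own plasma membrane carrier, Slc6a3 for dopamine and Slc6a4 for serotonin.

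Upstream sequences are shown for 3 enzyme genes of the pathway, Th because its signal varied least between arrays among the 9 genes, and Ddc and Tph2 because their signals varied together. Each is the stretch of 150 bases that ends just before a RefSeq start in GRCm38.p6, read 5′ to 3′ on the strand of the gene, with matches to the motifs searched in capitals. The Th stretch lies at chr7:142899996-142900145 (minus strand), the stretch before the more distal of the 2 Ddc starts at chr11:11898145-11898294 (minus strand) and the Tph2 stretch at chr10:115185023-115185172 (minus strand).
Th: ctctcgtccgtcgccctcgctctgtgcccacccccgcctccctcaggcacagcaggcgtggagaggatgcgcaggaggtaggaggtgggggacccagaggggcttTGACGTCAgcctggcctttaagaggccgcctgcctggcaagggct
Ddc: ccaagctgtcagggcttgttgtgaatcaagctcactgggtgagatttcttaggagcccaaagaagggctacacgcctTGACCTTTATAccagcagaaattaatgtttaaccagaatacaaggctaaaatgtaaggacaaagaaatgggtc
Tph2: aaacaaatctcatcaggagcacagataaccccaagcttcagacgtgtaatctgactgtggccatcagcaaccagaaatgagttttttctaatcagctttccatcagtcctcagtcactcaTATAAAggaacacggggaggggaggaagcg
The 250 bases before each start were searched on both strands, and all 10 genes had at least 1 sequence, 11 in all. The cyclic AMP response element TGACGTCA was found 45 bases before the Th start, and in 1.55% of all 32851 such windows. The NR4A half-site NBRE (AAAGGTCA), the element bound by Nr4a2 and its relatives, was found on the opposite strand 73 bases before the Ddc start, and in 1.34% of all windows. It overlaps there with a match to TATAAA, which also stood 30 bases before the Tph2 start, 164 bases before the Nr4a2 start on the opposite strand, and in 12.4% of all windows. The letters TAATCC (bicoid-type homeobox, 6.25% of all windows), CCGGAA (ETS, 12%) and TGTTTAC (forkhead, 3.17%) were in 0 of the 11 windows. The forkhead motif was added after the expression values were seen.

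The labels and tissue were checked first. Meg3 signal on its brightest probe set ran from 3109 to 6251 in wild-type and from 264 to 589 in knock-out arrays, and 11 of 11 Meg3 probe sets were lower (limma, adjusted p = 6.31e-07 for the brightest). All 10 general neuron markers on the list used lay above the low-signal bound of 56.9, against 1 of 6 pituitary markers. Array correlations over all probe sets ran from 0.931 to 0.983. For Actb, the 3′ over 5′ control ratio, which rises when RNA is degraded, was 2.92 in wild-type 2 and 1.81 in knock-out 1, and 1.32 to 1.495 in the other 11 arrays. Whole-brain RNA mixes all cells, so fewer cells of a type and less RNA per cell cannot be told apart in any value below.

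No monoamine gene passed the test between knock-out and wild-type brains. Of the 17 probe sets 0 passed in either direction (limma on log2(signal + 16), Benjamini-Hochberg adjusted p from 0.965 to 1.00), where 25 of 45037 probe sets passed (0.0555%; 0.00666% higher and 0.0488% lower). At an unadjusted p under 0.05 there were also 0 of 17, where 4.68% of all probe sets were higher and 0.553% lower. Groups overlapped on all 17 probe sets; they did not on 0.164% of all (0.113% with the knock-out higher and 0.0511% lower). The knock-out mean was higher on 14 and lower on 3 of the 17, with a median log2 difference of 0.13, beside 0.08 and 69.6% higher over all probe sets. Of the 17, 13 lay above the low-signal bound and 4 below it.

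Th, the rate-limiting enzyme of dopamine and noradrenaline synthesis, had the most even signal. Its only probe set read from 139 to 212 in wild-type arrays with a median of 185, and from 145 to 236 in knock-out arrays with a median of 166. The highest array was knock-out 4 and the lowest wild-type 4, and the groups covered nearly the same range. The log2 difference, knock-out minus wild-type, was -0.03 (95% interval -0.34 to 0.28).

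Ddc, which makes both dopamine and serotonin from their precursors, varied more widely in both genotypes. On its main probe set wild-type signals ran from 148 to 674 with a median of 449, and knock-out signals from 221 to 653 with a median of 396. The lowest and the highest arrays of the whole series, wild-type 1 and wild-type 5, were both wild-type. The log2 difference was 0.04 (95% interval -0.68 to 0.76). A second, very weak Ddc probe set read from 1.66 to 7.92 and varied with the first over the 13 arrays (r = 0.744, a description of 2 readings of 1 gene).

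Tph2, the brain enzyme that commits tryptophan to serotonin, also varied widely. Its signal was 31.3 to 196 in wild-type (median 79.1) and 48.4 to 186 in knock-out arrays (median 70.6), above the low-signal bound in 10 of 13 arrays. Wild-type 5 and knock-out 3 stood highest and wild-type 1 and wild-type 3 lowest. The log2 difference was 0.09 (95% interval -0.64 to 0.82).

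Dbh, which turns dopamine into noradrenaline, had 3 probe sets near or somewhat above the bound. The brightest read 31.2 to 191 in wild-type (median 83.9) and 95.01 to 240 in knock-out arrays (median 119). Its wild-type arrays split into low ones (wild-type 1, 3 and 4, at 34.9, 31.2 and 65.6) and higher ones, which the knock-out arrays overlapped. Its log2 difference of 0.61 (95% interval -0.10 to 1.31) was the highest of the 17 and had the smallest p, 0.0885 (limma adjusted p = 0.965; two-sided exact permutation p = 0.134, and 0.259 with genotype reassigned only within litters). It was 0.40 without wild-type 3 and 0.39 with a pseudocount of 64, but 0.83 without wild-type 2 and 0.84 with the Actb ratio as covariate. The highest arrays on this probe set, knock-out 1 at 240 and wild-type 2 at 191, were those with the high Actb ratio. The suffix _x_at of this probe set marks probes that can match other transcripts as well. The other Dbh probe sets gave 0.35 and 0.14, and correlations between the 3 ran from -0.28 to 0.55.

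Among the carriers, Slc18a2, the vesicular monoamine transporter, read 90.5 to 543 in wild-type arrays (median 267) and 232 to 469 in knock-out arrays (median 351). Wild-type 1 was far below all others and wild-type 6 above all others. The log2 difference was 0.45 (95% interval -0.17 to 1.07; exact permutation p = 0.189). It was 0.19 without wild-type 1, 0.26 without litter 219 and 0.25 under median centring, but 0.67 without wild-type 6.

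Slc6a3, the dopamine transporter, is made almost only by dopamine neurons. Its signal was 58.9 to 313 in wild-type (median 134) and 106 to 345 in knock-out arrays (median 186). The low end was held by wild-type 1, wild-type 4 and wild-type 3, and the high end by knock-out 4 and wild-type 5. The log2 difference was 0.42 (95% interval -0.38 to 1.22; exact permutation p = 0.325). Leaving out single arrays moved it to 0.23 (without wild-type 1), 0.26 (wild-type 4), 0.27 (knock-out 4) or 0.66 (wild-type 5). It was 0.09 without litter 238, 0.24 under quantile normalization and 0.22 under median centring.

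Slc6a4, the serotonin transporter, is made by serotonin neurons and, for a time before and after birth, by some thalamic neurons. It read 94.0 to 319 in wild-type (median 134) and 110 to 327 in knock-out arrays (median 202). Again wild-type 4 and wild-type 1 were lowest, and knock-out 3 and wild-type 5 highest. The log2 difference was 0.36 (95% interval -0.26 to 0.97; exact permutation p = 0.272, and 0.593 within litters). It was 0.18 with litter held constant and 0.10 without litter 238, 0.24 without wild-type 4 and 0.56 without wild-type 5. Quantile normalization gave 0.20 and median centring 0.16.

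**Figure D1:**
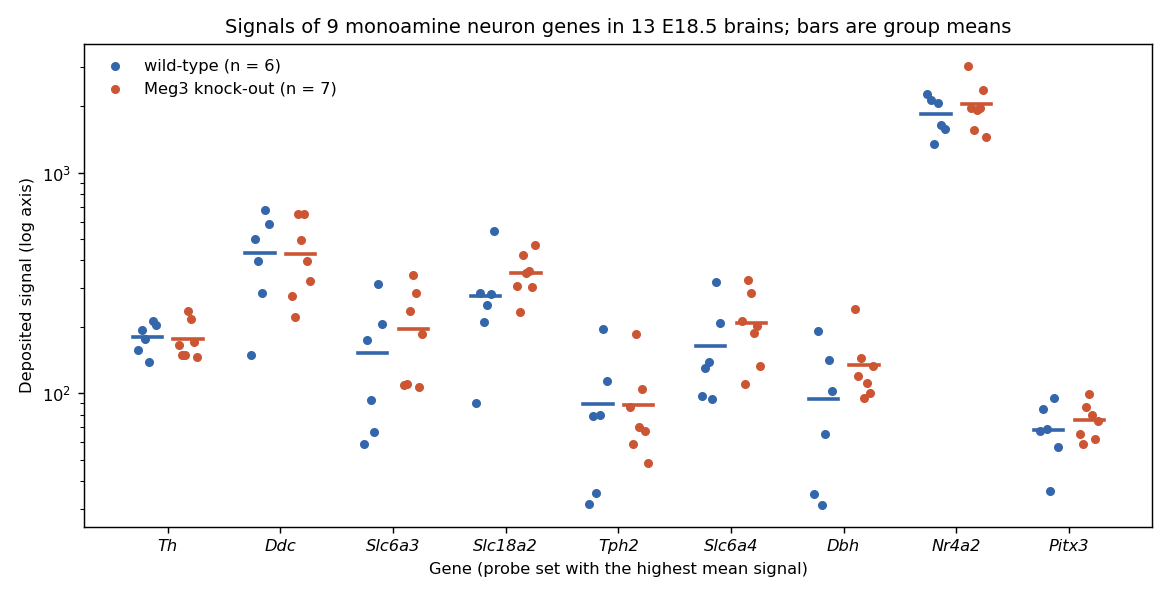
Deposited signal (vertical, log axis) of the 9 genes with a probe set, each by its probe set with the highest mean, in 6 wild-type (blue) and 7 Meg3 knock-out (orange) arrays; bars are group means. The points of both groups overlap for each gene, and Th spans 139 to 236 while Slc6a3 spans 58.9 to 345.

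Nr4a2 and Pitx3 are the transcription factors that dopamine neurons of the midbrain need to mature and survive. Pitx3, which in the brain is nearly restricted to those neurons, read 36.2 to 95.4 in wild-type (median 68.0) and 59.2 to 98.9 in knock-out arrays (median 74.8), with a log2 difference of 0.14 (95% interval -0.23 to 0.51). Wild-type 4 was the lowest array and knock-out 4 the highest. Nr4a2, which cortical and other neurons also express, had 6 probe sets, of which 4 lay above the bound. The brightest read 1349 to 2270 in wild-type (median 1856) and 1450 to 3046 in knock-out arrays (median 1959), with knock-out 1 highest. Its log2 difference was 0.13 (95% interval -0.26 to 0.52), and the 6 probe sets gave -0.04 to 0.15. The 4 brighter Nr4a2 probe sets varied together (r from 0.389 to 0.904).

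**Figure D2:**
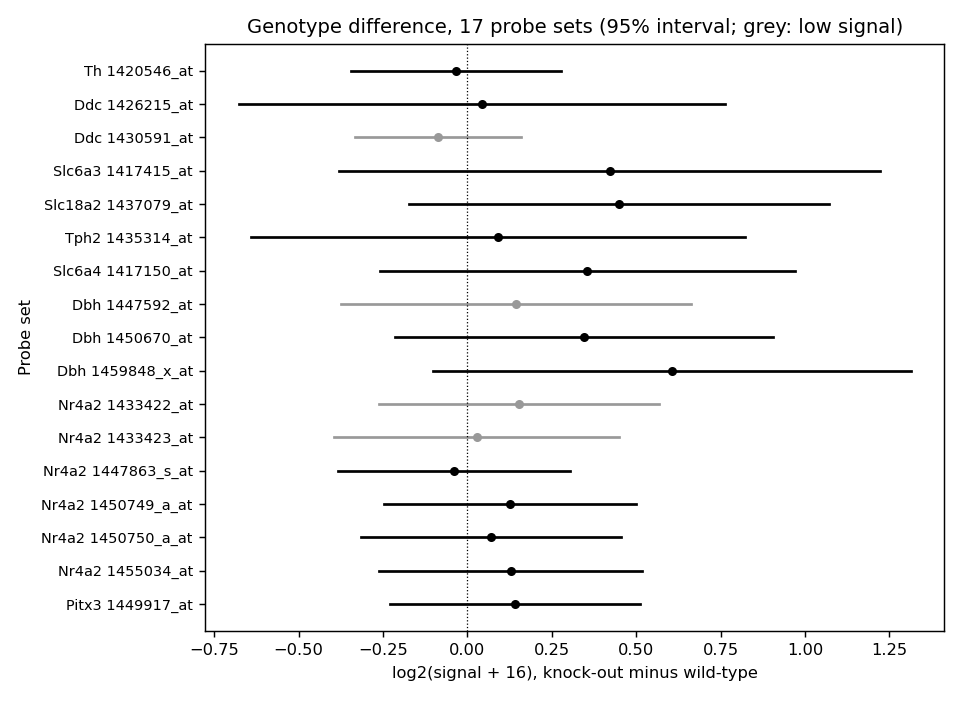
Difference in log2(signal + 16), knock-out minus wild-type (horizontal), with its 95% interval from limma for each of the 17 probe sets (vertical); grey marks the 4 below the low-signal bound. All 17 intervals include 0, and the point values run from -0.09 to 0.61.

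Between littermates of opposite genotype, 15 of the 17 probe sets differed in sign from litter to litter, 2 were higher in the knock-out in all 4 litters and 0 were lower in all 4. The share of all probe sets higher in all 4 litters was not counted. Since 69.6% of all had a higher knock-out mean, these counts are not read as particular to the members. The 2 higher in all 4 litters were the brightest Dbh probe set, at 0.40, 1.5, 0.10 and 0.33 in litters 219, 238, 250 and 262, and the Nr4a2 probe set with a mean wild-type signal of 449, at 0.06, 0.64, 0.18 and 0.09. Within the same litters, in that order, the log2 difference of Slc6a3 was 0.08, 1.46, 0.21 and -0.14, and that of Tph2 was 0.16, 1.36, -0.50 and -1.01. Litter 238, with 1 wild-type and 2 knock-out embryos, gave the highest within-litter value for Slc6a3, Slc18a2 (0.82), Slc6a4 (1.06), Tph2 and the brightest Dbh probe set. For litter itself, 0 of 17 probe sets passed the limma F test of litter with genotype in the model (lowest adjusted p = 0.252), and 10 of 45037 did (0.0222%). At an unadjusted p under 0.05 the same test gave 1 of 17, the brightest Nr4a2 probe set, where it gave 15.5% of all probe sets.

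Several of these genes spread widely between brains of 1 genotype, also within a litter. In litter 219 the Ddc signal was 148 in wild-type 1 and 500 in wild-type 2. In litter 250 the Slc6a3 signal was 66.7 in wild-type 4 and 313 in wild-type 5, and 283 in knock-out 5 and 106 in knock-out 6. The pooled SD within genotype, on the log2 scale, was 0.75 for Slc6a3, 0.68 for Tph2, 0.67 for Ddc, 0.57 for Slc18a2 and 0.56 for Slc6a4. The median over probe sets above the bound was 0.32, and 93.9%, 91.3%, 90.7%, 85.2% and 84.6% of them had a smaller SD than these 5 in turn. The brightest Dbh probe set (0.66) lay at 90.2%, Nr4a2 (0.33) at 52.7%, Pitx3 (0.31) at 47.2% and Th (0.24) at 28.3%.

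Some of these genes varied together. Over the 13 arrays 29 of the 36 pairs of the 9 genes correlated positively, and 9 pairs passed at an adjusted p under 0.05 (Pearson r, permutation test adjusted over the 36 pairs), all 9 positive; 0 of 36 passed by Spearman's rho after the same adjustment. Many other genes correlated with each member as highly. The 95th percentile of r over 12919 other genes was 0.648 for Ddc, 0.556 for Slc6a3, 0.695 for Slc18a2, 0.522 for Tph2 and 0.486 for Slc6a4. In 8 of the 9 pairs r lay above the 95th percentile of both genes, the exception being Slc6a3 with Slc18a2. Ranked among those genes, the partners in the 9 pairs stood between 6th (Ddc for Slc6a3) and 819th (Slc6a3 for Slc18a2); for Ddc, Slc6a3 stood at 50, Tph2 at 210, Slc6a4 at 219 and Slc18a2 at 394. Ddc and Slc6a3 had the highest value, r = 0.827 (permutation p = 0.00053, adjusted 0.0191) and rho = 0.764 (p = 0.00323, adjusted 0.108). Without wild-type 1 and knock-out 2, the arrays farthest from the median of Ddc, r was 0.787. The same pair had r = 0.909 among wild-type and 0.775 among knock-out arrays, and 0.852 after genotype and litter were removed.

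Nr4a2, which other neurons also express, was left out of the dopamine set used next, and Th also serves noradrenaline neurons. The r of Nr4a2 was -0.06 with Th, -0.37 with Slc6a3 and -0.22 with Pitx3, and none of these passed. Of the 6 pairs of a dopamine gene (Th, Slc6a3, Pitx3) with a serotonin gene (Tph2, Slc6a4) 1 passed. Of the 4 pairs within either set, so drawn, 3 passed, and the difference was not tested. The pair that passed across the sets was the dopamine transporter Slc6a3 with the serotonin transporter Slc6a4, at r = 0.764 (permutation p = 0.00332, adjusted 0.0241) and rho = 0.703 (p = 0.00896, adjusted 0.108). Without the 2 arrays farthest from the median of Slc6a3, r was 0.619. The other 5 pairs across the sets had r of 0.647 (Slc6a3 with Tph2), 0.638 (Pitx3 with Slc6a4), 0.544 (Th with Slc6a4), 0.303 (Th with Tph2) and 0.297 (Pitx3 with Tph2). Within the serotonin pathway Tph2 and Slc6a4 gave r = 0.744 (permutation p = 0.00351, adjusted 0.0241) and rho = 0.643 (p = 0.0203, adjusted 0.116), with r = 0.507 without the 2 arrays farthest from the median of Tph2. Within the dopamine pathway Slc6a3 and Pitx3 gave r = 0.747 (permutation p = 0.00247, adjusted 0.0241) and rho = 0.687 (p = 0.0124, adjusted 0.111), with r = 0.756 without the 2 arrays farthest from the median of Slc6a3.

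The other 5 pairs that passed were Ddc with Tph2 (r = 0.746), Ddc with Slc6a4 (0.743), Th with Slc6a3 (0.699), Ddc with Slc18a2 (0.697) and Slc6a3 with Slc18a2 (0.674). Their rho values were 0.725, 0.643, 0.593, 0.484 and 0.637, with permutation p of 0.00657, 0.0205, 0.0344, 0.0976 and 0.0225. Ddc with Slc18a2 fell to r = 0.308 without the 2 arrays farthest from the median of Ddc, so that relation rests on those arrays. Without the same 2 arrays Ddc gave 0.658 with Tph2 and 0.627 with Slc6a4. Th with Slc6a3 fell to 0.525 without the 2 arrays farthest from the median of Th. Slc6a3 with Slc18a2 fell to 0.498 without the 2 farthest from that of Slc6a3. Over 20 alternatives these 5 pairs passed in 18, 17, 7, 15 and 14, in the order first given. By its brightest probe set Dbh was in none of the 9 pairs. Its highest r was 0.592, with Tph2 (permutation p = 0.0314, adjusted 0.0808). That probe set can match other transcripts and had r of -0.28 and 0.55 with the other Dbh probe sets. Those were not set against the other genes, so the place of Dbh rests on the probe set chosen.

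The 2 arrays at the ends carried much of the test. Wild-type 1 was lowest of the 13 for Ddc, Slc6a3, Slc18a2 and Tph2, and wild-type 5 highest for Ddc and Tph2 and second highest for Slc6a3, Slc6a4 and Pitx3. Without wild-type 1 the count of pairs past the threshold was 1, without wild-type 5 it was 0, and without knock-out 2 it was 5; without knock-out 7 it was 15. The r of Ddc with Slc6a3 lay between 0.772 and 0.856 over the 20 alternatives and passed in 18. The count was 12 without wild-type 2 and knock-out 1, the arrays with the high 3′ over 5′ ratio, and r of each gene with that ratio ran from -0.08 to 0.45 (lowest permutation p = 0.160, adjusted over 9 genes 0.953). These permutations treat the 13 embryos as independent, although littermates share a mother.

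**Figure D3:**
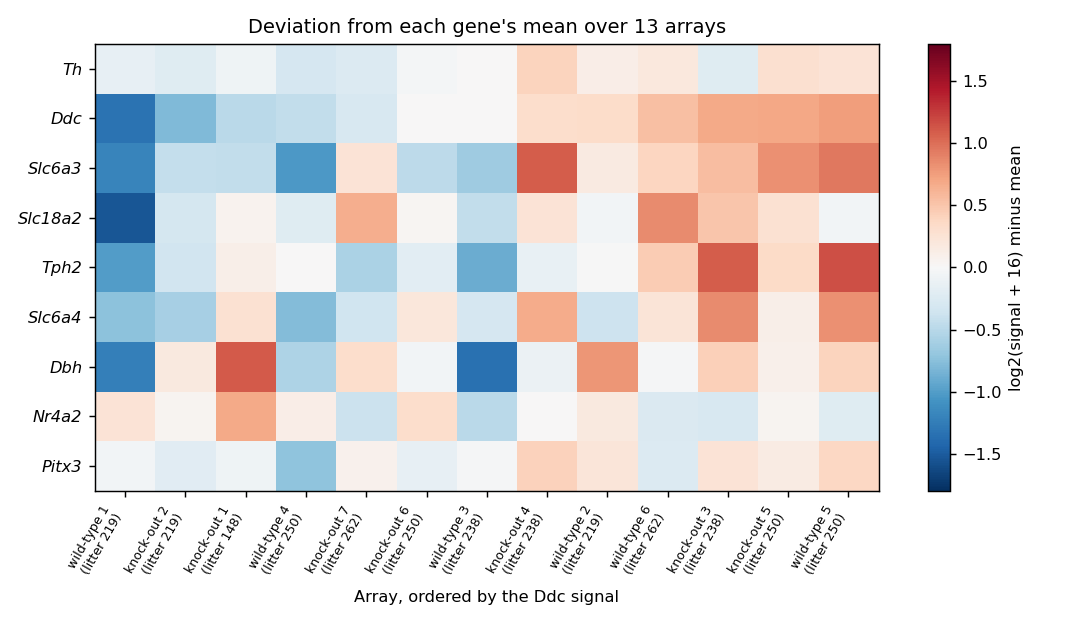
Deviation of log2(signal + 16) from the mean of each gene (colour) in 13 arrays ordered by the Ddc signal (horizontal, litter in brackets) for 9 genes (vertical). Slc6a3, Slc18a2, Tph2 and Slc6a4 are lowest or nearly so in wild-type 1 at the left and mostly high at the right, and Nr4a2 does not follow them.

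Nr4a2 stood outside this shared variation. Its brightest probe set had negative r with Ddc (-0.43), Slc6a3 (-0.37), Slc18a2, Tph2, Slc6a4, Th and Pitx3, 7 of its 8 pairs and all 7 negative pairs of the 36, and none passed (lowest adjusted permutation p = 0.238). The single gene most like it among 12919 other genes was Cux2, a transcription factor of upper-layer cortical neurons, with r = 0.948 over 13 arrays. Over the 20 alternatives, all on this probe set, the r with Cux2 ran from 0.887 to 0.986 and its rank from 1 to 3. The other Nr4a2 probe sets above the bound had r of 0.904, 0.639 and 0.389 with the brightest. They were not set against Cux2 or the region markers, so these relations are shown for the brightest probe set only. Against the mean level of 6 cortex markers Nr4a2 gave r = 0.786 (permutation p = 0.00134, adjusted over 81 gene and region pairs 0.109) and rho = 0.791 (p = 0.0019, adjusted 0.139), and r = 0.879 without the 2 arrays farthest from the median of the markers. After genotype and litter were removed r with the cortex markers was 0.466. With the separate list of subplate and deep cortex markers Nr4a2 gave r = 0.04 (permutation p = 0.890, adjusted 0.988), and 0.005 without 2 arrays. None of the 81 passed.

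Ddc ran the other way against the same cortex markers, at r = -0.755 (permutation p = 0.00337, adjusted over the 81 pairs 0.120). Its rho was -0.764 (permutation p = 0.00344, adjusted 0.139), and r was -0.556 without the 2 arrays farthest from the median of the markers. The r was also negative for Slc6a3 (-0.66), Slc6a4 (-0.59), Slc18a2 (-0.53), Pitx3 (-0.51), Tph2 (-0.39) and Th (-0.39), while Dbh gave 0.04. With 7 thalamus markers Ddc gave r = 0.733 (permutation p = 0.00445, adjusted 0.120) and rho = 0.632 (p = 0.0239, adjusted 0.277). Without 2 arrays r was 0.397, so that relation rests on those arrays. Slc6a4 gave r = 0.676 with the thalamus markers (permutation p = 0.0101, adjusted 0.205), and 0.531 without 2 arrays. For Slc6a3 r was 0.606 (permutation p = 0.0269, adjusted 0.312), and 0.492 without 2 arrays. Over the other genes r ran from -0.36 (Nr4a2) to 0.58 (Slc18a2). All 6 measured cortex markers and all 7 thalamus markers lay above the bound. Their summed signals ran from 10060 to 19725 in wild-type and from 10418 to 19999 in knock-out arrays for cortex, and from 6387 to 10752 and from 4981 to 15510 for thalamus. Of 17 midbrain and hindbrain markers 15 lay above the bound, with sums of 1846 to 6018 in wild-type and 2113 to 4863 in knock-out arrays. Their mean level gave r from -0.22 to 0.45 with the 9 genes. In that list Hoxb5 ran from 2.95 to 1451 in wild-type and from 0.976 to 591 in knock-out arrays. En2 ran from 184 to 710 and from 223 to 622. The mean level thus leans on its most variable genes, and midbrain markers alone were not set against the members. The part that unequal shares of brain regions have in the shared variation was not tested.

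**Figure D4:**
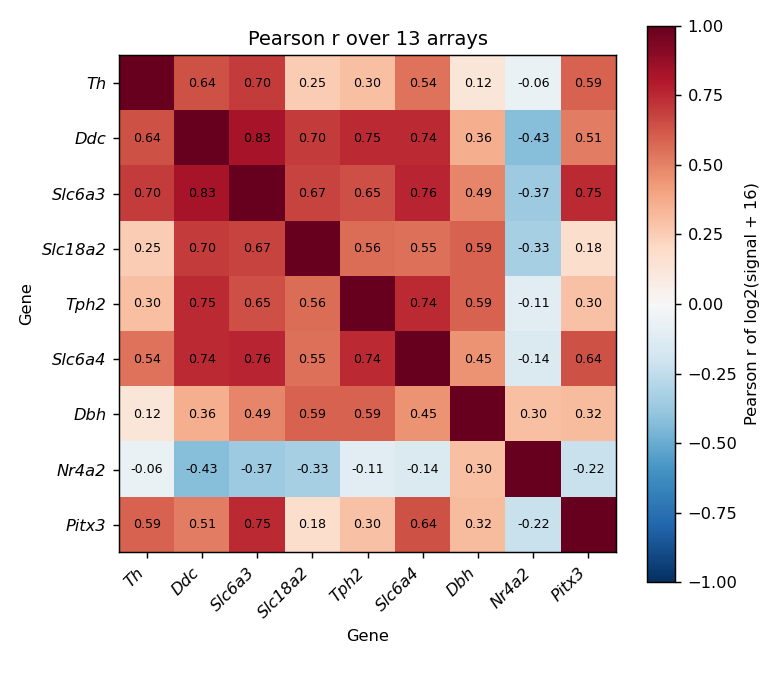
Pearson r of log2(signal + 16) over 13 arrays for each pair of the 9 genes (colour and number). Ddc, Slc6a3, Slc6a4, Tph2 and Slc18a2 form a block of positive values led by 0.83, and 7 of the 8 values of Nr4a2 are negative.

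For Slc6a3 the gene with the highest r of 12919 was Foxa1 (r = 0.868), and for Slc6a4 it was Foxa2 (r = 0.846); both factors are known from the floor plate and from dopamine neurons. Foxa1 signal ran from 45.1 to 335 and Foxa2 signal from 38.6 to 209. Both were lowest in wild-type 1, wild-type 4 and knock-out 2 and highest in knock-out 4. Wild-type 1 and wild-type 4 were also the lowest arrays for both transporters. Over 20 alternatives the r of Slc6a3 with Foxa1 ran from 0.837 to 0.907 and was the highest of all genes in 12, its lowest rank being 25 without wild-type 4. The r of Slc6a4 with Foxa2 ran from 0.784 to 0.891 and was the highest in 7, its lowest rank being 57 after genotype and litter were removed. The crossed pairs ranked lower: Foxa2 stood at 56 for Slc6a3 (r = 0.735, down to 376 without wild-type 4) and Foxa1 at 12 for Slc6a4 (r = 0.781, down to 85 without wild-type 4). Neither factor passed the genotype test (log2 difference 0.14 ± 0.44 SE for Foxa1 and 0.15 ± 0.31 SE for Foxa2, limma adjusted p = 1.00). With the highest of 12919 values chosen, these r are descriptions without a test.

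**Figure D5:**
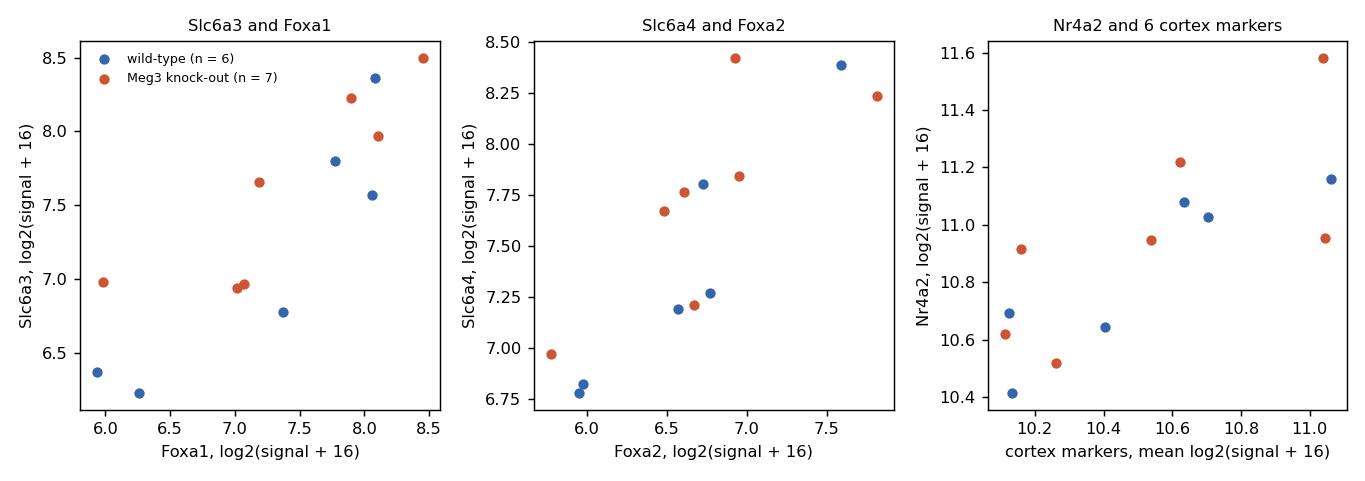
Log2(signal + 16) of Slc6a3 against Foxa1 (left), Slc6a4 against Foxa2 (middle) and Nr4a2 against the mean of 6 cortex markers (right). Each point is 1 array, wild-type blue and knock-out orange, and Nr4a2 is read from its brightest probe set only. Both genotypes lie along the same rising band in each panel (r = 0.868, 0.846 and 0.786 over 13 arrays).

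Among other genes of these neurons and of monoamine chemistry 0 passed for genotype. Of 19 listed dopamine neuron factors and markers 18 had a probe set, 13 with a higher and 5 with a lower knock-out mean, at a median log2 difference of 0.12, and 0 passed. The smallest p belonged to Kcnj6, the potassium channel subunit GIRK2 (57.5 ± 11.4 SD, n = 6, in wild-type and 92.2 ± 34.5 SD, n = 7, in knock-out), at 0.52 ± 0.19 SE (limma adjusted p = 0.905), with its 5 probe sets from -0.12 to 0.52. Ret, the receptor for GDNF, had 0.24 ± 0.21 SE. Of 12 measured serotonin neuron genes 7 had higher means (median 0.06, 0 passed), with Gata2, a factor upstream of the serotonin programme, at 0.27 ± 0.21 SE and Tph1, the tryptophan hydroxylase of peripheral tissues, at -0.38 ± 0.23 SE below the bound. Of 8 noradrenaline and adrenaline neuron genes 6 had higher means (median 0.09, 0 passed), with the noradrenaline transporter Slc6a2 at 0.26 ± 0.17 SE and Pnmt, which makes adrenaline, at 0.23 ± 0.29 SE and from -0.43 to 0.23 over its 3 probe sets. Beside these stand the median of 0.08 and 69.6% with higher means over all probe sets, weak ones included. The lists take 1 probe set per gene. Over all genes above the low-signal bound, taken the same way, the median was 0.04.

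Of 10 measured genes for tetrahydrobiopterin supply and monoamine breakdown 8 had higher means (median 0.02, 0 passed). Pts, a step of tetrahydrobiopterin synthesis, had 0.26 ± 0.13 SE (limma adjusted p = 0.947), and Gch1, its first enzyme, -0.24 ± 0.20 SE on its brighter probe set and 0.25 on the other. Of 17 measured monoamine receptors 10 had higher means (median 0.02, 0 passed), with the serotonin receptors Htr3a at 0.22 ± 0.19 SE and Htr2b, below the bound, at -0.25 ± 0.19 SE.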

How the data were processed

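Whole brains were profiled on Affymetrix arrays after one-cycle biotin labelling of 5 µg of total RNA, per the labels' protocols. The authors deposited linear probe set intensities; the sources used here do not name their software, summary method or scaling. Of 45101 probe sets 64 controls were set aside; 34945 carried 1 symbol, 932 several and 9160 none. The number of arrays limits the precision.

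Genotypes and replicate numbers came from the titles and litters from the leading number of the embryo label; no label says that a replicate number pairs embryos. Values were turned into log2(signal + 16), which understates changes of weak probe sets. Every non-control probe set was fitted with limma 3.58.1 in R 4.3.3 (lmFit, eBayes, two-sided, Benjamini-Hochberg over all 45037, threshold 0.05), without a litter term. The low-signal bound is the 40th percentile of mean log2 values, a signal of 56.9. Single probe sets also had two-sided exact permutation tests over all 1716 splits and over 108 within-litter assignments; correlations had 100000 resamples. For correlations each gene was read from its probe set with the highest mean. Likeness was ranked over 12919 other genes. Both methods were tested on simulated data. Figures used matplotlib 3.10.9.

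The members and lists were chosen with earlier results of these data known. Named are all member probe sets, Meg3, the 2 members of each other list with the smallest p where none passed (given here for the pathway lists), and, per member, the 3 genes with the highest r. Alternatives covered pseudocounts of 1 and 64, filters, scaling, blocks, the Actb ratio, and arrays or litters left out. Region lists were set against the members, and a forkhead motif added, after values were seen. Because Fev had no probe set, 36 pairs were tested, not the 45 planned. Among the other lists, all of them region or tissue markers, 0 genes passed.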

Additional observations from a re-analysis of the deposited data

Results flagged for a closer look

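Among 34 groups of arrays (17 probe sets in 2 genotypes), 3 held an array far from the others on the log2 scale, where chance alone gives about 5% of groups. On the weakest Dbh probe set wild-type 2, the array with the highest 3′ over 5′ ratio of Actb, read 10.04 and the next wild-type array 49.9. On another Dbh probe set knock-out 6 read 32.2 and the next knock-out array 67.4. On a very weak Nr4a2 probe set knock-out 1, the array with the second highest ratio (1.81), read 26.6 and the next knock-out array 7.57. The highest wild-type array on that probe set was wild-type 2, at 18.2.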

How the results depend on the processing

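Under all 29 alternatives to the genotype fit 0 member probe sets passed, and under all 5 alternatives to the litter fit 0 passed (the weakest probe sets were not in the filtered fits). Over all probe sets the count of higher calls, 3 as reported, was 0 with a pseudocount of 64, either low-signal filter, quantile normalization, median centring, a trend in eBayes, or without litter 250, and 1 with equal trimmed means, without the 2 arrays of highest Actb ratio, without litter 219 or without litter 262; leaving out single arrays gave 0 to 6. The count of lower calls, 22 as reported, was 3 with 1 probe set per gene and 12 without litter 250; leaving out single arrays gave 17 to 21. Litter calls, 10 as reported, were 25 under quantile normalization and 30 under median centring. Correlated pairs, 9 as reported, were 20 after genotype and litter were removed, a fit that leaves fewer free values than its permutation test assumes, and 0 to 15 without single arrays. The 3 higher calls had mean signals of 30.5, 25.4 and 33.7, below the low-signal bound, so the filtered fits did not hold them. Of the 22 lower calls 11 were Meg3 probe sets, and the fit with 1 probe set per gene holds only 1 of these. The cause of the other shifts was not tested.

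With litter as a replicate block there were 0 higher and 17 lower calls, and the block changed the call of no member. With the replicate number as a block there were 0 higher and 10 lower calls. Same-numbered embryos deviated together with r from -0.26 to 0.40. Of the 6 numbers found in both genotypes 3 joined different litters and the rest joined littermates, and no label says that a number pairs embryos. Under these blocks Ddc stood at -0.0295 and the weakest Nr4a2 probe set at -0.0988 (litter), and Th at 0.00527 and the Nr4a2 _s_at probe set at 0.0135 (replicate number), each turned in sign.

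Median centring moved the median log2 difference of all probe sets from 0.08 to -0.11, and quantile normalization to -0.01. Signs of small log2 differences turned with them. Under median centring Ddc was -0.154, Tph2 -0.107, the weakest Dbh probe set -0.0528, Pitx3 -0.0559 and 5 Nr4a2 probe sets -0.0446, -0.169, -0.0706, -0.126 and -0.0684. Under quantile normalization Ddc was -0.0842, Tph2 -0.0773, the weakest Dbh probe set -0.0278, Pitx3 -0.066 and the 2 weak Nr4a2 probe sets -0.0162 and -0.0417. With equal trimmed means Ddc was -0.0101. The weakest Dbh probe set was -0.065 with the Actb ratio as covariate and -0.106 without the 2 arrays of highest ratio, where the weakest Nr4a2 probe set was -0.00137. Without litter 219 Ddc was -0.0593, Tph2 -0.0742, the weakest Dbh probe set -0.0885 and the other weak Nr4a2 probe set -0.14. Without litter 238 Ddc was -0.143, Tph2 -0.25 and the Nr4a2 _s_at probe set 0.0342. Without litter 250 Ddc was -0.00382 and the weakest Nr4a2 probe set -0.0173, and without litter 262 Th was 0.0404. Leaving out single arrays gave -0.102 to 0.0127 for Th, -0.217 to 0.197 for Ddc, -0.102 to 0.331 for Tph2, -0.11 to 0.22 for the weakest Dbh probe set, and -0.112 to 0.139, -0.105 to 0.0606 and -0.0142 to 0.165 for 3 Nr4a2 probe sets.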

Other observations

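Klhl1, an actin-binding protein of neurons, was among the 3 genes most like both Ddc (r = 0.918) and Slc6a3 (r = 0.842) over the 13 arrays, with signals from 166 to 486. Its profile was lowest in wild-type 1 and highest in wild-type 5, as was that of Ddc, and its log2 difference by genotype was 0.08 ± 0.22 SE. The gene most like Ddc was Fuca2, a secreted fucosidase (r = 0.938), the gene most like Tph2 was Trhde, which degrades thyrotropin-releasing hormone (r = 0.855), and the gene most like Pitx3 was Htr5a, a serotonin receptor (r = 0.834). Those most like Th, Slc18a2 and Dbh were Oas1a (r = 0.826), Zfp772 (r = 0.918) and Stard9 (r = 0.885). The genes next in order were Pdzk1ip1 (0.783) and Cyp2j9 (0.781) for Th, Brinp3 (0.935) for Ddc, Adsl (0.848) for Slc6a3, Ncam2 (0.901) and 1110015O18Rik (0.901) for Slc18a2, Klhl15 (0.848) and B3galnt1 (0.848) for Tph2. For the other genes they were 2900093K20Rik (0.836) and Lgr5 (0.834) for Slc6a4, Ccdc43 (0.874) and Cisd2 (0.865) for Dbh, Bicra (0.930) and Fam214b (0.910) for Nr4a2, Zbtb46 (0.818) and E230029C05Rik (0.806) for Pitx3. All were picked as the highest of 12919 values and carry no test.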
